A study of Homo sapiens with 13 samples.

Results

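The comparison described here is between the replicate 1 and the replicate 2 RNA-seq libraries of HEL cells, a human erythroleukaemia line with erythroid and megakaryocytic traits. In these cells a stably introduced SRSF2, switched on with doxycycline, was either wild type (WT) or carried the P95H substitution found in myelodysplasia. SRSF2 is a splicing factor of the serine and arginine rich (SR) family. The members were chosen by replicate number in the labels: WT replicate 1 and P95H replicate 1 on the first side, WT replicate 2 and P95H replicate 2 on the other, which is 4 of the 5 RNA-seq libraries and of the 13 samples of the series. All 4 were treated with doxycycline at 1 µg/ml for 48 h and grown in RPMI with serum, and RNA was depleted of ribosomal RNA before sequencing. The fifth RNA-seq library, the P95H cells without doxycycline, has no partner and is shown beside the others without entering a test. Of 58581 genes in the count table, 15167 had at least 1 CPM (a count scaled to its library total) in at least 2 of the 4 libraries and were tested.

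The labels call the duplicates biological replicates and give nothing else, so culture, passage, day of harvest, RNA extraction and library preparation cannot be told apart as the source of a difference. They also name neither a clone nor a shared day for libraries of the same number. With 1 library for each genotype and number, the fit left 1 residual degree of freedom, with 22.1 prior degrees of freedom drawn from other genes. The p-values thus rest mostly on a spread shared across genes, and they do not reach beyond these 4 samples. The difference between the WT pair and the P95H pair was not tested for single genes. In bulk RNA, fewer cells of a type and less RNA per cell cannot be told apart.

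As background, the mitochondrial genome is a small circle that encodes 13 subunits of the respiratory chain and ATP synthase with 2 ribosomal and 22 transfer RNAs, and it is transcribed as long precursors from both strands by a polymerase of its own. The other subunits of those complexes come from nuclear genes. Nuclear programmes such as the hypoxia response, sterol synthesis, the unfolded protein response and the immediate early genes follow oxygen, nutrients, protein load and growth signals.

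The 5 libraries held 37414093 to 45005605 counts, so that 3 counts correspond to 0.0667 to 0.0802 CPM. Erythroid and megakaryocytic markers of HEL cells were present in every library, among them GATA1, KLF1, TAL1, HBG2 and ITGA2B, whereas the platelet chemokine gene PF4 had no count in the 4 libraries. Of markers of other cell types, 15 of 22 lymphoid, 15 of 24 epithelial or fibroblast and 12 of 27 myeloid or mast cell genes were below 1 CPM in all 5 libraries. The summed level was 14.5 to 20.8 CPM for the lymphoid markers, 178 to 222 CPM for the epithelial and fibroblast markers and 1492 to 1935 CPM for the myeloid and mast cell markers, the last led by HDC, the histidine decarboxylase. SRSF2 itself had 224 and 231 CPM in replicate 1 (WT, then P95H), 231 and 251 CPM in replicate 2 and 286 CPM without doxycycline. Its gene count was thus highest in the uninduced library and was not raised in the induced libraries, a difference that was not tested. Libraries of the same number were the most alike. The Pearson correlation of log2(CPM + 1) across the tested genes, which are not independent replicates, was 0.997 between WT and P95H within each number, against 0.989 between the WT libraries and 0.991 between the P95H libraries.

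Many expressed genes differed with replicate number. In a quasi-likelihood F test (edgeR) with genotype as a block, 1957 genes were higher in replicate 2 (12.9% of those tested) and 1717 were lower (11.3%) at a Benjamini-Hochberg adjusted p under 0.05. Log2 changes are given below as replicate 2 minus replicate 1, with a standard error (SE) derived from the F statistic of the fit. This SE rests mostly on the spread shared across genes and does not describe how far the WT and P95H pairs differ. Most changes were small: the median absolute log2 change of the called genes was 0.47, and 223 of the higher and 261 of the lower genes changed at least 2-fold. Of the 3674 called genes, 3664 had the same sign in the WT and the P95H pair, and in 3611 the 2 libraries of either number did not overlap in level. Both counts follow largely from the call, which favours genes whose pairs are alike, so they are no separate evidence. The number of calls depended on the test. DESeq2 with the same design called 769 higher and 555 lower, all 1324 of them among the genes above with the same sign. Scaling to library totals alone moved the split from 53.3% of calls higher to 40.2% (1433 higher, 2136 lower). Leaving out 1 library, which leaves 3 libraries and no genotype block, gave 875 higher and 698 lower without WT replicate 1, 886 and 580 without WT replicate 2, 885 and 718 without P95H replicate 1, and 1298 and 1162 without P95H replicate 2.

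More genes passed a 2-fold difference in WT than in P95H cells. In the WT pair taken alone, with no test, 305 genes were at least 2-fold higher in replicate 2 (2.01%) and 393 at least 2-fold lower (2.59%). In the P95H pair the counts were 227 (1.5%) and 294 (1.94%). Of these, 141 were at least 2-fold higher in both pairs, which is 46.2% of the WT and 62.1% of the P95H genes, and 135 were at least 2-fold lower in both, 34.4% and 45.9%. No gene was 2-fold higher in one pair and 2-fold lower in the other. Across the tested genes, the differences of the pairs correlated with r = 0.70, and their median absolute size was 0.21 in WT and 0.18 in P95H on the log2 scale.

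**Figure D1:**
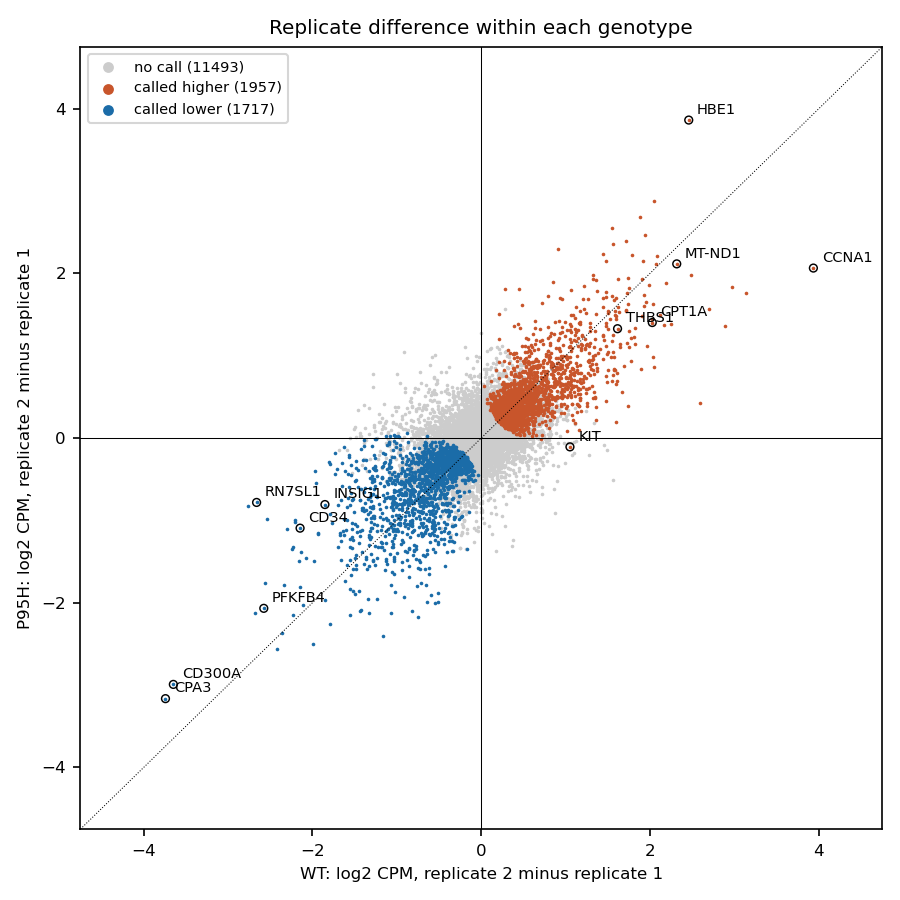
Log2 difference in CPM between replicate 2 and replicate 1 for each of 15167 genes, in the WT pair (horizontal) and in the P95H pair (vertical); red and blue points are genes called higher or lower in the fit over all 4 libraries, and the dotted line marks equal differences. Called genes lie in the lower left and upper right corners with few exceptions, of which KIT (1.05 in WT, -0.11 in P95H) is circled. The place of the called genes follows largely from the call itself.

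The largest rises under the naming rule were in a germline cyclin, an embryonic globin, a protease and mitochondrial transcripts. CCNA1, cyclin A1, was at 1.16 and 0.867 CPM in the WT and P95H replicate 1 libraries and at 17.6 and 3.68 CPM in replicate 2 (log2 change 3.28 ± 0.27 SE, adjusted p = 5.73e-09). It was higher in both pairs (log2 difference 3.94 in WT and 2.06 in P95H), and the WT replicate 2 library was the highest. HBE1, the embryonic epsilon-globin gene, was at 2.60 and 0.394 CPM in replicate 1 and 13.9 and 6.21 CPM in replicate 2 (log2 change 2.93 ± 0.23 SE, adjusted p = 2.11e-09). Its gene model (chromosome 11, 5268345 to 5505617) lies within that of HBG2 (chromosome 11, 5248274 to 5645789), so that reads of the globin cluster may be split between them. PRSS23, a secreted serine protease, was at 4.55 and 4.63 CPM in replicate 1 and 32.6 and 11.6 CPM in replicate 2 (log2 change 2.19 ± 0.21 SE, adjusted p = 5.62e-08). The P95H replicate 2 library again lay between the WT replicate 2 library and both replicate 1 libraries. RNVU1-19, a variant copy of the U1 spliceosomal RNA, was at 4.95 and 4.36 CPM in replicate 1 and 18.4 and 23.6 CPM in replicate 2 (log2 change 2.21), with the caution that near-identical U1 copies share reads. The noncoding genes AC116366.5 (2.20), CH17-373J23.1 (2.08) and RP3-323N1.2 (2.05) and the coding gene C22orf15 (1.98) had log2 changes of similar size at low counts. The remaining places among the 12 were held by MT-ND1, MT-ND2 and the nuclear copies MTND2P28 (1.92) and MTND1P23 (1.85) on chromosome 1, whose sequence resembles the mitochondrial genes and which can receive their reads.

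The largest falls were in genes of mast cells, surface receptors and glucose metabolism. CPA3, the mast cell carboxypeptidase, was at 7.22 and 12.8 CPM in replicate 1 and 0.475 and 1.34 CPM in replicate 2 (log2 change -3.45 ± 0.21 SE, adjusted p = 2.05e-11), the largest fall under the naming rule. CD300A, an inhibitory receptor of myeloid cells, was at 17.6 and 19.6 CPM in replicate 1 and 1.31 and 2.35 CPM in replicate 2 (log2 change -3.31 ± 0.16 SE, adjusted p = 8.14e-13). Every replicate 1 library stood several-fold above every replicate 2 library for both genes. PFKFB4, which sets the level of the glycolytic activator fructose 2,6-bisphosphate, was at 20.9 and 15.2 CPM in replicate 1 and 3.32 and 3.50 CPM in replicate 2 (log2 change -2.34 ± 0.15 SE, adjusted p = 3.83e-11). FGF23, a phosphate-regulating hormone, was at 19.1 and 10.5 CPM in replicate 1 and 3.06 and 2.98 CPM in replicate 2 (log2 change -2.19). ABCA1, the cholesterol exporter, was at 27.4 and 25.8 CPM in replicate 1 and 5.51 and 9.79 CPM in replicate 2 (log2 change -1.78). The rule that named these genes required that the replicate 1 and replicate 2 libraries did not overlap. FAM83A (-2.39), the natriuretic peptide clearance receptor NPR3 (-1.76), TRANK1 (-1.71), and the noncoding or pseudogene loci RP11-16C1.2 (-1.81), RP11-642D6.1 (-1.77) and RN7SL4P (-1.75) completed the list with RN7SL1, which is described below.

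**Figure D2:**
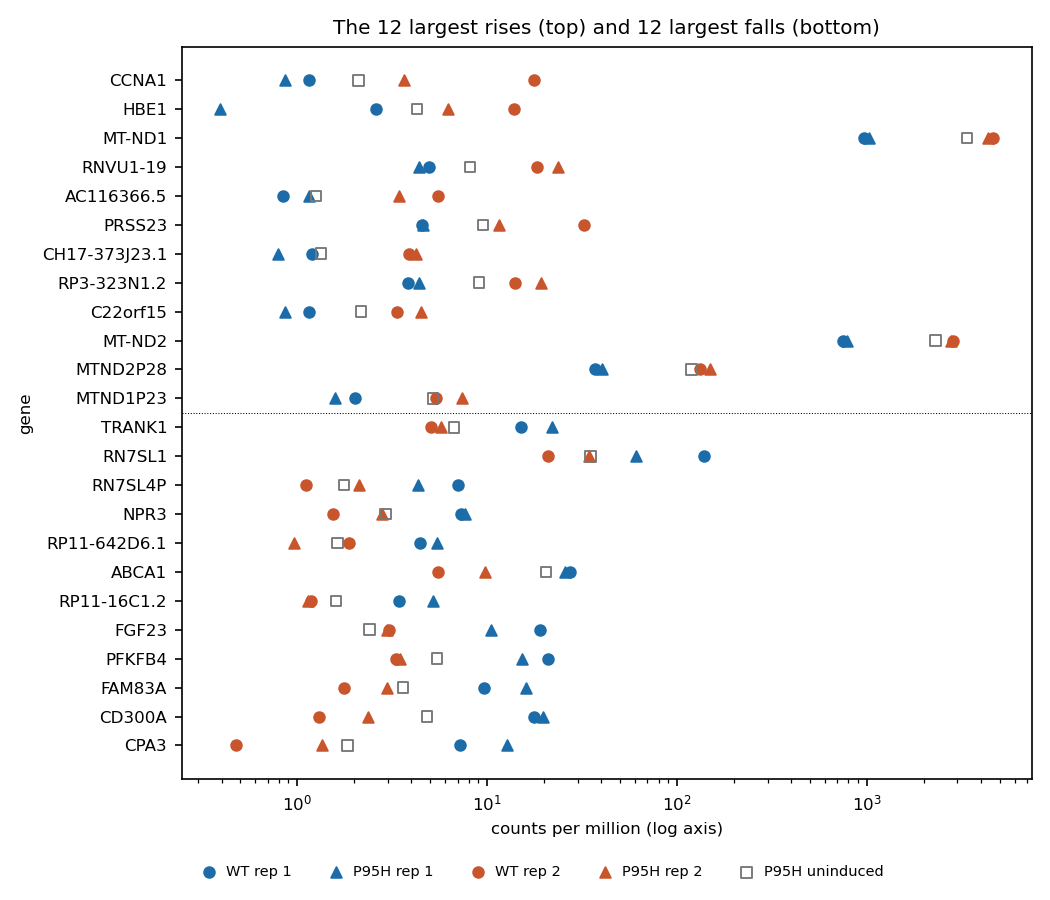
Level in CPM (log axis) of the 12 genes with the largest rise and the 12 with the largest fall in replicate 2, in each of the 4 libraries and in the uninduced P95H library. Blue (replicate 1) and red (replicate 2) symbols do not overlap because the genes were chosen so, and the uninduced library (open squares) is nearer the replicate 2 symbols for most of them.

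Every tested gene of the mitochondrial genome was higher in replicate 2. Its 13 protein genes made up 1.38% of counts in both replicate 1 libraries, and 4.50% (WT) and 4.30% (P95H) of counts in replicate 2. That is a 3.26-fold difference in the WT pair and a 3.11-fold difference in the P95H pair (mean log2 1.67 ± 0.048 SD, n = 2 pairs). An exact permutation test of 2 against 2 libraries cannot go below p = 0.333 (two-sided). Gene by gene, all 13 passed the test over all genes, with a median log2 change of 1.68 (1.62 in the WT pair, 1.70 in the P95H pair) against 0.00 for all tested genes. All 13 also passed with DESeq2 and with any library left out. MT-ND1, a core subunit of complex I (chromosome M, 3307 to 4262), was at 971 and 1030.3 CPM in replicate 1 and 4640.1 and 4340.2 CPM in replicate 2 (log2 change 2.22 ± 0.09 SE, adjusted p = 2.92e-14), the largest change of the 13. MT-ND3, another complex I subunit, had the smallest, from 327 and 285 CPM to 551 and 656 CPM (log2 change 1.03 ± 0.09 SE, adjusted p = 1.1e-08). Both replicate 2 libraries exceeded both replicate 1 libraries for each of these genes.

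The change was not equal along the genome. Among complex I subunits the log2 change was 1.93 for MT-ND2, 1.68 for MT-ND4, 1.65 for MT-ND4L and 1.41 for MT-ND5. The cytochrome b gene MT-CYB changed by 1.79, the cytochrome oxidase genes MT-CO1, MT-CO2 and MT-CO3 by 1.77, 1.62 and 1.60, and the ATP synthase genes MT-ATP6 and MT-ATP8 by 1.84 and 1.82. The SE of these values was between 0.08 and 0.10. MT-ND6, the protein gene that alone is transcribed from the opposite strand to the other 12, was at 281 and 310.3 CPM in replicate 1 and 813 and 842 CPM in replicate 2 (log2 change 1.54 ± 0.08 SE, adjusted p = 9.08e-13). The use of strand in counting is not known, so reads of the opposite strand may be part of its count. Overlapping neighbours (MT-ATP8 with MT-ATP6, MT-ND4L with MT-ND4) can share reads. The ribosomal RNAs MT-RNR1 and MT-RNR2 changed less than most of the protein genes: MT-RNR2 was at 1215 and 1197 CPM in replicate 1 and 2745 and 2549 CPM in replicate 2 (log2 change 1.18 ± 0.08 SE, adjusted p = 1.94e-10), and MT-RNR1 was at 565 and 614 CPM in replicate 1 and 1476 and 1157 CPM in replicate 2. The RNA was depleted of ribosomal RNA, and the part of that step in their level was not tested. Transfer RNA genes were scarcely counted, and of those above the minimum MT-TP was also higher (1.75). MT-TF (log2 change 2.39) passed the minimum only through replicate 2.

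**Figure D3:**
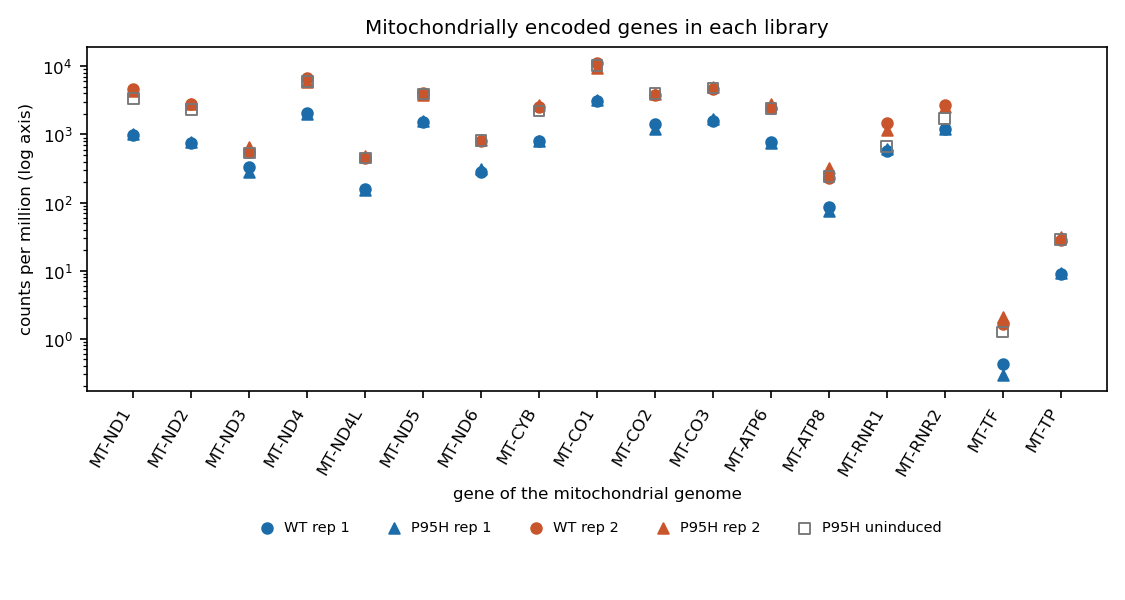
CPM (log axis) of the 13 protein genes, 2 ribosomal RNA genes and 2 transfer RNA genes of the mitochondrial genome in each library. The red replicate 2 symbols and the uninduced library lie above the blue replicate 1 symbols for every gene, with MT-RNR1 of the uninduced library closest to replicate 1.

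Nuclear genes for the same complexes did not follow. Of 28 nuclear subunits of complex I, 1 was higher and 1 lower (median log2 change -0.03). Of 34 subunits of complexes II to V, 1 was higher and 7 were lower (median -0.14). SDHA, the flavoprotein of complex II, was the higher gene (0.38, lost without P95H replicate 1), and UQCRH, the hinge protein of complex III, was among the lower (-0.33, lost without WT replicate 1). DESeq2 called 1 of the 7 lower genes, and no subunit of complexes II to V was lower without WT replicate 1. Of 31 mitochondrial ribosomal proteins, 1 was higher (MRPS2, 0.40, lost with DESeq2 and without either P95H library) and the median was 0.00. Genes that maintain and transcribe mitochondrial DNA or process its RNA had 7 of 24 members higher and none lower (median log2 change 0.06). PPRC1, a coactivator of mitochondrial biogenesis, was at 216 and 222 CPM in replicate 1 and 281 and 265 CPM in replicate 2 (log2 change 0.37 ± 0.07 SE, adjusted p = 0.000825), and the RNA-binding proteins FASTKD2 (0.30) and FASTK (0.31) were also higher. TFAM, the packaging factor of mitochondrial DNA, had a log2 change of 0.02 and the polymerase POLRMT of 0.20, neither past the threshold. DESeq2 made the PPRC1 call alone of the 7, and 1 member was higher without WT replicate 2. ATF5, a transcription factor of the mitochondrial stress response, was higher (log2 change 0.62 ± 0.09 SE, adjusted p = 2.04e-05), and it was 1 of 3 of the 13 genes of that response that were.

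Cytosolic ribosomal protein genes moved the other way, by a small and even amount. Of 58 tested, 51 were lower in replicate 2 and none was higher (median log2 change -0.32; -0.37 in the WT pair and -0.27 in the P95H pair). The share of counts from these genes was 4.87% and 4.78% in replicate 1 and 3.58% and 3.81% in replicate 2. RPS20 was at 701 and 659 CPM in replicate 1 and 442 and 466 CPM in replicate 2 (log2 change -0.53 ± 0.08 SE, adjusted p = 2.23e-05), and RPL27 changed by -0.53, RPL13A by -0.48 and RPS3A by -0.48. The replicate 1 libraries were above the replicate 2 libraries for all 4. RPS23, at 0.17, was alone in a positive value and did not pass the test. DESeq2 called 45 of the 58 lower, and with 1 library left out the count was 30 (without WT replicate 1) to 49. The translation factors EEF1A1 and EIF4B, which share the terminal oligopyrimidine mRNA type with ribosomal proteins, were lower too. Other genes of this mRNA type were not counted as a group. EEF1A1, the elongation factor that delivers aminoacyl-tRNA, was at 7859 and 7482 CPM in replicate 1 and 5867 and 5872 CPM in replicate 2 (log2 change -0.33 ± 0.08 SE, adjusted p = 0.00522), and EIF4B changed by -0.36. Both lost the call without WT replicate 1. Among all 25 translation factors 3 were higher and 7 lower (median -0.05; 1 lower without WT replicate 1), the lower ones including EIF4EBP1 (-0.52), the repressor of cap-dependent initiation. EIF4A1, a helicase whose model overlaps a readthrough gene and small nucleolar RNAs, stood out with 10.1 and 13.01 CPM in replicate 1 and 30.3 and 36.6 CPM in replicate 2 (log2 change 1.59), at a level that may hold only part of its reads. Ribosome biogenesis genes had 4 of 33 higher and 1 lower (median 0.10; 2 higher without WT replicate 1), no more than the 12.9% and 11.3% of all tested genes, among them NOP16 (0.41) and, lower, FBL (-0.27), whose call was lost without either WT library.

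Processed pseudogenes, which are reverse-transcribed copies of mRNAs, were lower as a class (638 genes, median log2 change -0.32, 19 higher and 128 lower). The 86 copies of ribosomal protein genes had a median of -0.46 with 28 lower and none higher, and the 552 others a median of -0.29 with 100 lower and 19 higher. Their reads may come from the parent genes, so they are no separate evidence. Short, abundant coding genes outside the ribosomal and mitochondrial lists (93 genes with a span of up to 5 kb and over 100 CPM) had 9 higher and 26 lower. These shares of 9.68% and 28.0% compare with 12.9% and 11.3% of all tested genes. Their median was -0.09, against -0.32 for the ribosomal genes, and the part of transcript length in either value was not tested.

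Hypoxia-inducible genes were lower in replicate 2. They are switched on by the HIF factors when oxygen is short, through a core element of the letters ACGTG or GCGTG. Of 19 tested, 13 were lower and none higher, and all 19 had a negative value (median log2 change -0.44; -0.46 in WT, -0.36 in P95H). DESeq2 called 8, and 7 (without WT replicate 1) to 11 passed with 1 library left out. The promoters of the 2 members with the largest fall follow because both hold the element in the 250 bases before the start of the gene. Capitals mark each match on either strand (CACGT and CACGC are the element read on the opposite strand), and sequences are from RefSeq on GRCh38.p14.
BNIP3 (chr10:131981924-131982173, minus strand): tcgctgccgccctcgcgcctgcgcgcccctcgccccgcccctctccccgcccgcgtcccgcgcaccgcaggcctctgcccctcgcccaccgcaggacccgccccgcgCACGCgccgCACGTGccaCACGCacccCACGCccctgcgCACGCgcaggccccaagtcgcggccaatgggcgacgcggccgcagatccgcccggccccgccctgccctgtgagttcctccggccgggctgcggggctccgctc
PFKFB4 (chr3:48556804-48557053, minus strand): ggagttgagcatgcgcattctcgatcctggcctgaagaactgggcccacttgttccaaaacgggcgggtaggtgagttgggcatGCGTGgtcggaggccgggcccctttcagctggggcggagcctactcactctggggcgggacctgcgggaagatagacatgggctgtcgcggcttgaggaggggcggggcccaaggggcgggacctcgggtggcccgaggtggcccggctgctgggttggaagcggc
BNIP3 has 6 matches in 5 stretches of capitals, as CACGTG holds the element on both strands, and PFKFB4 has 1. The element occurred before 10 of the 14 list members with a promoter in the table and before 57.2% of the 9595 tested genes with one, so the letters are common; 7 of the 10 members with a match and 3 of the 4 without were lower. BNIP3, a receptor for the removal of mitochondria, was at 50.8 and 40.02 CPM in replicate 1 and 16.9 and 18.00 CPM in replicate 2 (log2 change -1.32 ± 0.10 SE, adjusted p = 1.76e-09). VEGFA, the angiogenic growth factor, was at 69.9 and 80.2 CPM in replicate 1 and 37.04 and 50.4 CPM in replicate 2 (log2 change -0.74 ± 0.08 SE, adjusted p = 7.69e-07). PFKFB4, given above, fell the furthest. For all 3 the highest replicate 2 level was below the lowest replicate 1 level. BHLHE40, a clock-linked repressor also known to respond to hypoxia, changed alike (36.04 and 30.01 CPM in replicate 1, 11.9 and 12.6 CPM in replicate 2; log2 change -1.37 ± 0.11 SE, adjusted p = 2.04e-09).

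Glycolytic genes shared the direction with a split inside the list. Of 21 tested, 10 were lower and 2 higher (median log2 change -0.17), and 3 were lower without WT replicate 1. The enzymes ENO2 (-0.43, lost without WT replicate 2 or P95H replicate 1), PGK1 (-0.37) and GAPDH (-0.33) were lower. ALDOC, a brain-type aldolase, was at 2.78 and 2.23 CPM in replicate 1 and 0.855 and 0.717 CPM in replicate 2, and passed the minimum only through replicate 1, where it was high. Both genes that were higher were transporters: SLC2A1, the main glucose carrier, was at 123 and 111 CPM in replicate 1 and 175 and 148 CPM in replicate 2 (log2 change 0.51 ± 0.07 SE, adjusted p = 2.4e-05), and SLC16A1, a lactate carrier, changed by 0.43. Of 22 genes of the tricarboxylic acid cycle 3 were higher and 3 lower (median 0.00; 1 higher without WT replicate 1), near the 12.9% and 11.3% of all tested genes, with the isocitrate dehydrogenases IDH1 (-0.49) and IDH2 (-0.46) lower and IDH3G (0.42), of the NAD-dependent form, higher.

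Genes of lipid synthesis were lower in replicate 2, with larger list medians in WT than in P95H cells. Of 24 genes of cholesterol synthesis and uptake, 14 were lower and 2 higher (median log2 change -0.39; -0.55 in the WT pair and -0.17 in the P95H pair). DESeq2 called 8 lower and 1 higher, and without WT replicate 1 the count of lower genes was 9. INSIG1, the sterol-sensitive retention protein of the endoplasmic reticulum, was at 228 and 204 CPM in replicate 1 and 60.6 and 113 CPM in replicate 2 (log2 change -1.32 ± 0.13 SE, adjusted p = 1.96e-07; DESeq2 adjusted p = 0.0664). LSS, the lanosterol synthase, was at 92.5 and 90.5 CPM in replicate 1 and 35.3 and 66.5 CPM in replicate 2 (log2 change -0.86; DESeq2 adjusted p = 0.269). In both genes the WT replicate 2 library was the lowest, with the P95H replicate 2 library between it and replicate 1. HMGCS1, which makes the HMG-CoA of the pathway, was more even (73.6 and 75.9 CPM in replicate 1, 39.2 and 44.96 CPM in replicate 2; log2 change -0.78 ± 0.08 SE, adjusted p = 2.45e-07), and FDPS changed by -0.65. The members that were higher were SQLE, the squalene epoxidase, at 0.45, and SC5D at 0.30. The sterol element TCACNCCAC, searched on both strands, lay before 1 of the 18 members with a promoter in the table (SREBF2) and before 0.792% of tested genes.

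Fatty acid synthesis genes had 9 of 14 lower and 1 higher (median log2 change -0.27). SCD, the stearoyl-CoA desaturase, was at 976 and 931 CPM in replicate 1 and 374 and 644 CPM in replicate 2 (log2 change -0.91 ± 0.12 SE, adjusted p = 5.5e-06; DESeq2 adjusted p = 0.101). ACACA, the acetyl-CoA carboxylase, was at 228 and 236 CPM in replicate 1 and 138 and 173 CPM in replicate 2 (log2 change -0.53). SREBF1, the transcription factor of this programme, was at 105 and 94.8 CPM in replicate 1 and 42.1 and 91.1 CPM in replicate 2, a difference of -1.26 in the WT pair and -0.02 in the P95H pair. Its call in the fit over all 4 libraries (log2 change -0.63, adjusted p = 0.00407) was lost with DESeq2 (adjusted p = 0.64), without the genotype block and without WT replicate 1, WT replicate 2 or P95H replicate 1. DESeq2 called 4 of the 9 genes, and 3 were lower without WT replicate 1. Targets of the oxysterol receptor LXR had 2 of 6 lower, ABCA1 and APOC1 (-0.54, lost with DESeq2 and without either WT library), and list medians of -0.62 in the WT pair and 0.04 in the P95H pair.

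Genes that burn fatty acids were mixed, with the largest changes upward. Of 17, 4 were higher and 3 lower (median log2 change 0.04; 1 lower without WT replicate 1). CPT1A, which admits fatty acids to mitochondria, was at 35.9 and 26.7 CPM in replicate 1 and 141 and 68.8 CPM in replicate 2 (log2 change 1.73 ± 0.10 SE, adjusted p = 2.22e-11). CD36, a fatty acid and thrombospondin receptor, was at 4.78 and 5.60 CPM in replicate 1 and 12.9 and 11.8 CPM in replicate 2 (log2 change 1.31), and the very long-chain dehydrogenase ACADVL changed by 0.57. Neither number overlapped the other for CPT1A or CD36. All 4 higher genes were also called by DESeq2. The list shares of 23.5% higher and 17.6% lower compare with 12.9% and 11.3% of all tested genes.

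Chaperones of the endoplasmic reticulum were higher in replicate 2. Their genes are known targets of ATF6 and XBP1, factors of the unfolded protein response that act through the stress element CCAAT, 9 bases, CCACG. Of 23 genes of this response, 11 were higher and 2 lower (median log2 change 0.28; 0.25 in WT, 0.26 in P95H). DESeq2 called 10 higher, and 9 to 11 passed with any library left out. The following promoters are shown because they hold this element and the genes were higher; capitals mark its outer letters on either strand (CGTGG and ATTGG are the element read on the opposite strand).
HSPA5 (chr9:125241344-125241593, minus strand): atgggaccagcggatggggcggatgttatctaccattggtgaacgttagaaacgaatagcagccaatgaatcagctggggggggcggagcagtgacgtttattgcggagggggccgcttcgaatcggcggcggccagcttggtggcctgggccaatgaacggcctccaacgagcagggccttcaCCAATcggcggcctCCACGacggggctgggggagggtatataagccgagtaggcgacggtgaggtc
HSP90B1 (chr12:103930160-103930409, plus strand): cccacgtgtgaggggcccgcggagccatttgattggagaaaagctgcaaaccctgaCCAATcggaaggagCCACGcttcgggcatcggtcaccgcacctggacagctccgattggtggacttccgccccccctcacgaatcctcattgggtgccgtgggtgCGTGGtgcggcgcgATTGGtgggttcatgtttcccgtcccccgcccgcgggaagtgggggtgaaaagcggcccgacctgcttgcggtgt
CALR (chr19:12938359-12938608, plus strand): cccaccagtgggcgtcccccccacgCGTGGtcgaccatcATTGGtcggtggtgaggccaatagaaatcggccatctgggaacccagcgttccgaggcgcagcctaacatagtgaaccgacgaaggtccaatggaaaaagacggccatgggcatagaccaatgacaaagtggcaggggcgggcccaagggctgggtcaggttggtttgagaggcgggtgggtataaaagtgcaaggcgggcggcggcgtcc
CANX (chr5:179698679-179698928, plus strand): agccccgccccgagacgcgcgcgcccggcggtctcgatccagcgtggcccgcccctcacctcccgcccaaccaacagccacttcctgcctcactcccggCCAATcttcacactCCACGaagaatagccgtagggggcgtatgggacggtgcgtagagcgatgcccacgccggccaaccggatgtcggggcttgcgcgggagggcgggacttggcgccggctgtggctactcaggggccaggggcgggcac
The element lay before 6 of the 21 members with a promoter in the table (CALR, CANX, CRELD2, HSP90B1, HSPA5 and XBP1) and before 0.135% of the 9595 tested genes with a promoter, on either strand. It begins 66 bases before the start of HSPA5. Of the 6 members with the element 4 were higher, as were 6 of the 15 without it. HSPA5, the chaperone BiP, was at 559.5 and 681 CPM in replicate 1 and 916 and 1016 CPM in replicate 2 (log2 change 0.70 ± 0.08 SE, adjusted p = 8.28e-07). CALR, calreticulin, was at 686 and 723 CPM in replicate 1 and 976 and 1007 CPM in replicate 2 (log2 change 0.54 ± 0.08 SE, adjusted p = 1.67e-05), HSP90B1 changed by 0.47, CANX by 0.36 and the disulfide isomerase PDIA3 by 0.43. The replicate 2 libraries were above the replicate 1 libraries for each. Not all members were higher: XBP1 had -0.20, HERPUD1 -0.13 and DNAJB9 -0.19, none past the threshold, and EDEM1, which helps to degrade misfolded proteins, had -0.29, a call that was lost with DESeq2 and without WT replicate 2. Cytosolic heat shock genes had 3 of 20 higher and 1 lower (15% and 5%, median 0.05), against 12.9% higher and 11.3% lower of all tested genes. HSPA1A, which passed the minimum only through replicate 2, had no adjusted p in DESeq2, and the other 3 lost the call there.

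Genes of the integrated stress and amino acid response were lower in part. Of 29, 13 were lower and 5 higher (median log2 change -0.15; -0.30 in WT, -0.03 in P95H), DESeq2 called 6 lower and 4 higher, and 7 were lower without WT replicate 1 and 2 higher without P95H replicate 1. DDIT4, an inhibitor of mTOR, was at 11.5 and 5.60 CPM in replicate 1 and 2.85 and 2.40 CPM in replicate 2 (log2 change -1.59 ± 0.19 SE, adjusted p = 1.67e-06). SESN2, a leucine-sensing protein, was at 35.7 and 19.5 CPM in replicate 1 and 13.9 and 10.5 CPM in replicate 2 (log2 change -1.09 ± 0.11 SE, adjusted p = 2.96e-07). WT replicate 1 was the highest library for both. The glutathione-degrading CHAC1 (15.5 and 6.57 CPM in replicate 1, 4.25 and 5.13 CPM in replicate 2) was at a clearly higher level in the WT replicate 1 library than in the other 3. Its log2 change of -1.08 lost the call with DESeq2 (adjusted p = 0.431) and without either WT library. The enzymes PSAT1 (-0.81) and PHGDH (-0.70), of serine synthesis, and ASNS (-0.71), which makes asparagine, were lower. ATF4, the factor that drives the programme, had -0.02 and did not pass. The amino acid carriers SLC7A5 (0.23), SLC1A5 (0.33) and SLC3A2 (0.36) were higher. Cytosolic tRNA synthetases had 4 of 20 lower (median -0.12), calls that were lost with DESeq2 and without WT replicate 2.

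**Figure D4:**
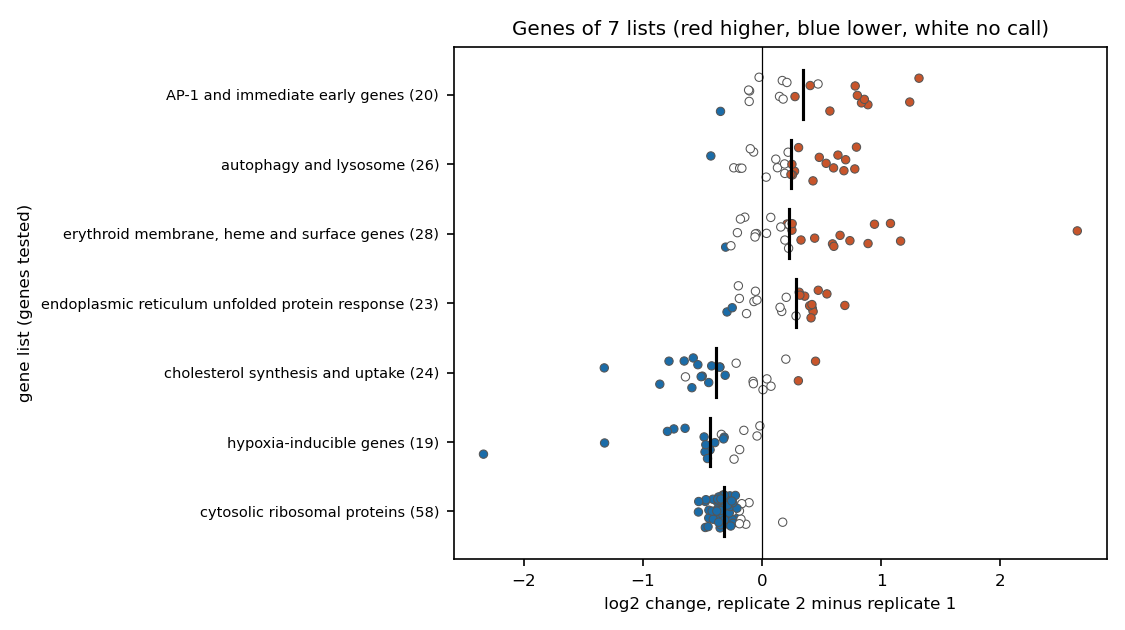
Log2 change (replicate 2 minus replicate 1) of every tested gene of 7 lists; red and blue points passed the test, white points did not, and the black bar is the list median. The 58 ribosomal protein genes form a narrow group around -0.32, while the hypoxia and cholesterol lists trail to the left and the erythroid, lysosomal and immediate early lists to the right.

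Lysosomal and iron genes were higher. Of 26 genes of autophagy and lysosomes, 14 were higher and 1 lower (median log2 change 0.25; 0.24 in WT and 0.26 in P95H), DESeq2 called 8 higher, and 7 were higher without WT replicate 2. MCOLN1, a calcium channel of the lysosome, was at 8.53 and 7.67 CPM in replicate 1 and 14.1 and 12.8 CPM in replicate 2 (log2 change 0.78 ± 0.13 SE, adjusted p = 8.16e-05). The log2 change was also positive in the hydrolases CTSA (0.70) and CTSL (0.69) and the membrane protein LAMP1 (0.60). The regulator TFEB had -0.17 and the autophagosome gene MAP1LC3B -0.07, neither past the threshold. Apart from the autophagy genes ULK1 and SQSTM1, the higher members were hydrolases and membrane proteins of the organelle. Of 13 iron genes 6 were higher and none lower (median 0.22), 4 of them with DESeq2, and 3 without WT replicate 1. TFRC, the transferrin receptor, was at 777 and 884 CPM in replicate 1 and 1443 and 1242 CPM in replicate 2 (log2 change 0.74 ± 0.09 SE, adjusted p = 2.21e-06). The ferritin genes FTH1 (0.18) and FTL (0.09) did not pass.

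Erythroid genes were higher in replicate 2. Of 28 genes for the red cell membrane, heme synthesis and surface antigens, 14 were higher and 1 lower (median log2 change 0.22; 0.21 in WT, 0.26 in P95H), and DESeq2 called 10 higher and 1 lower. Promoters of 2 of the higher genes are shown with the GATA motif (AGATAA or TGATAA, in capitals, on either strand), the letters bound by GATA1 in erythroid cells.
ALAS2 (chrX:55030978-55031227, minus strand): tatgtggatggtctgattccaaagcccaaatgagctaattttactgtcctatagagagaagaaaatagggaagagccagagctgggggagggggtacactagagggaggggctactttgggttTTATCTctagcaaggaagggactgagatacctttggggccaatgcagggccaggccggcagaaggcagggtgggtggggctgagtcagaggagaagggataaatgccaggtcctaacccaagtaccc
KEL (chr7:142962364-142962613, minus strand): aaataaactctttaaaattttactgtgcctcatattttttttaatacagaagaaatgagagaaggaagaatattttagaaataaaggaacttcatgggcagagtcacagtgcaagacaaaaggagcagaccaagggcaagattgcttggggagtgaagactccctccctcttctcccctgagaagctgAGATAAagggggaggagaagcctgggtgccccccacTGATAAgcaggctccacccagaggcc
The match in ALAS2 is on the opposite strand, and KEL has 2 matches. The motif lay before 9 of the 19 members with a promoter in the table and before 8.08% of tested genes; 8 of the 9 with it and 2 of the 10 without it were higher. ALAS2, the erythroid first enzyme of heme synthesis, was at 2.78 and 2.37 CPM in replicate 1 and 5.89 and 4.62 CPM in replicate 2 (log2 change 1.08 ± 0.19 SE, adjusted p = 0.000202; the call was lost without WT replicate 2). KEL, the Kell blood group endopeptidase, was at 20.3 and 25.2 CPM in replicate 1 and 35.1 and 37.9 CPM in replicate 2 (log2 change 0.74). SLC4A1, the anion exchanger band 3, was at a low level, with 0.244 and 0.105 CPM in replicate 1 and 1.12 and 1.05 CPM in replicate 2 (log2 change 2.65); it passed the minimum only through replicate 2, where it was high, and DESeq2 gave it no adjusted p. ERMAP changed by 0.94 and the erythropoietin receptor EPOR by 0.89. Replicate 2 was above replicate 1 in both genotypes for all of these, and GYPC (-0.31) was the lower member.

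Globin genes were higher. Of 8, 5 were higher and none lower (median log2 change 0.95; 0.78 in WT and 1.12 in P95H), and DESeq2 also called 5. HBG2, a fetal gamma-globin, was at 80.6 and 49.5 CPM in replicate 1 and 121 and 121 CPM in replicate 2 (log2 change 0.98 ± 0.11 SE, adjusted p = 4.3e-07). HBZ, the embryonic zeta-globin, was at 0.733 and 0.526 CPM in replicate 1 and 2.54 and 2.55 CPM in replicate 2 (log2 change 2.06), and passed the minimum only through replicate 2. HBA1 was at 3.00 and 2.00 CPM in replicate 1 and 7.10 and 5.20 CPM in replicate 2 (log2 change 1.36). The gamma-globin and alpha-globin pairs are near-identical copies, so the split of reads within each pair is uncertain. Of the regulators GATA1 had a log2 change of 0.14 and TAL1 of 0.15, both short of the threshold, while KLF1 (0.33) and NFE2 (0.37) were higher. GFI1B went the other way, with 181 and 152 CPM in replicate 1 and 114 and 132 CPM in replicate 2.

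Megakaryocytic genes split. Of 27, 11 were higher and 3 lower (median log2 change 0.19), with DESeq2 calling 7 and 2, and 5 were higher without WT replicate 2. THBS1, thrombospondin, was at 1642 and 1179.8 CPM in replicate 1 and 4823 and 2879 CPM in replicate 2 (log2 change 1.47 ± 0.09 SE, adjusted p = 1.82e-11). TUBB1, the platelet beta-tubulin, was at 21.7 and 17.9 CPM in replicate 1 and 44.3 and 31.1 CPM in replicate 2 (log2 change 0.97), and the integrin subunit ITGB3 changed by 0.76. Its partner ITGA2B had 0.04 and VWF 0.02, which did not pass. SELP, P-selectin, went the other way, with 16.7 and 18.6 CPM in replicate 1 and 5.89 and 7.89 CPM in replicate 2 (log2 change -1.32 ± 0.13 SE, adjusted p = 7.17e-08). Adhesion and matrix genes had 10 of 21 higher and 4 lower (median 0.19; 5 higher without P95H replicate 1): the metalloproteinase MMP2 was higher (1.30, lost without WT replicate 2 or P95H replicate 1) and the integrin ITGB5 was lower (61.5 and 52.7 CPM in replicate 1, 24.01 and 28.7 CPM in replicate 2; log2 change -1.07).

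Single genes of progenitors and of the myeloid and mast cell branch differed. SPI1, the myeloid factor PU.1, was at 22.9 and 22.6 CPM in replicate 1 and 7.27 and 12.2 CPM in replicate 2 (log2 change -1.20 ± 0.14 SE, adjusted p = 9.17e-07). CD34, the progenitor antigen, was at 16.6 and 17.2 CPM in replicate 1 and 3.56 and 7.82 CPM in replicate 2 (log2 change -1.59 ± 0.17 SE, adjusted p = 3.99e-07). In both the WT replicate 2 library was the lowest. FCER1A, the alpha chain of the high-affinity IgE receptor, was at 169 and 226 CPM in replicate 1 and 96.6 and 119 CPM in replicate 2 (log2 change -0.82). HDC, which makes histamine in the same cell type, was higher, with 490.0 and 548 CPM in replicate 1 and 729.6 and 758 CPM in replicate 2 (log2 change 0.57). The myeloid and mast cell list had 2 of 13 higher and 3 lower (median -0.24), against 12.9% and 11.3% of all tested genes. KIT, the stem cell factor receptor, was at 180.4 and 269 CPM in replicate 1 and 359 and 243 CPM in replicate 2. It differed by 1.05 in the WT pair and by -0.11 in the P95H pair on the log2 scale, so the pairs had opposite signs. Its call (log2 change 0.47 ± 0.14 SE, adjusted p = 0.0187) was lost with DESeq2, with 3 other filters or scalings, without the genotype block and without either WT library. Of 26 haematopoietic transcription factors 6 were higher and 5 lower (median 0.09; 3 higher without WT replicate 1 and 1 lower without WT replicate 2), with NFIA (84.99 and 87.2 CPM in replicate 1, 174 and 132 CPM in replicate 2; log2 change 0.87) and GFI1 (0.86) the most increased. Of 14 stem and progenitor genes 4 were higher and 1, CD34, was lower, and the 4 higher calls were lost with DESeq2 and without WT replicate 1.

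Immediate early genes of the AP-1 family and their kin were higher. Of 20, 10 were higher and 1 lower (median log2 change 0.34; 0.26 in WT, 0.32 in P95H), DESeq2 called 5 higher, and 6 were higher without WT replicate 2. JUN was at 22.3 and 17.3 CPM in replicate 1 and 43.8 and 27.99 CPM in replicate 2 (log2 change 0.89 ± 0.10 SE, adjusted p = 6.76e-07). FOS was at 1.00 and 1.05 CPM in replicate 1 and 2.52 and 2.42 CPM in replicate 2, a low level (log2 change 1.32; DESeq2 adjusted p = 0.0631), and FOSB changed by 1.24. EGR1 (-0.11) and IER2 (-0.03) did not pass, and JUND had -0.35, a call that was lost with DESeq2. Feedback genes of the MAP kinase pathway went the other way, with 7 of 18 lower and 2 higher (median -0.16): CCND1, cyclin D1, was at 16.2 and 16.03 CPM in replicate 1 and 5.22 and 10.3 CPM in replicate 2 (log2 change -1.06 ± 0.16 SE, adjusted p = 3.62e-05), and the ETS factors ETV4 (-0.72) and ETV5 (-0.63) and the phosphatase DUSP6 (-0.57) were lower. DESeq2 called 5 of these 7.

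Other signal-responsive lists were smaller in extent. Inflammatory genes had 5 of 21 higher and 4 lower (median log2 change 0.13; 3 higher without WT replicate 2 and 1 lower without WT replicate 1), against 12.9% higher and 11.3% lower of all tested genes. IRF1, an interferon-induced transcription factor, was at 17.7 and 19.6 CPM in replicate 1 and 66.2 and 41.5 CPM in replicate 2 (log2 change 1.55 ± 0.13 SE, adjusted p = 4.47e-09), and the chemokine CXCL2 was at 15.8 and 15.1 CPM in replicate 1 and 46.1 and 39.9 CPM in replicate 2 (log2 change 1.53). Interferon-stimulated genes split, with 9 of 27 higher and 5 lower (median -0.04; 0.20 in WT and -0.03 in P95H), and 2 were higher without WT replicate 1. RSAD2, viperin, was at 37.9 and 40.2 CPM in replicate 1 and 103 and 62.5 CPM in replicate 2 (log2 change 1.09), while the membrane proteins IFITM1 (-0.80) and IFITM2 (-0.57) were lower. DESeq2 called 1 gene of this list in each direction, neither of them RSAD2 or IFITM1. Antigen presentation genes had 5 of 14 higher and 1 lower, led by the peptide transporter TAP2 (0.74), with list medians of 0.33 in the WT pair and -0.0027 in the P95H pair, and 2 were higher without WT replicate 1. TGF-beta and BMP targets had 7 of 15 higher and none lower (median 0.22; 3 higher without P95H replicate 1), among them the inhibitors SMAD7 (0.98, lost without WT replicate 1, WT replicate 2 or P95H replicate 1) and SMAD6 (50.7 and 46.02 CPM in replicate 1, 87.4 and 82.2 CPM in replicate 2; log2 change 0.86). Listed p53 targets had 8 of 19 higher and 2 lower (median 0.18; 3 higher without P95H replicate 1). The kinase PLK3 was higher (0.92), as was the cell cycle inhibitor CDKN1A (0.81, lost without WT replicate 2 or P95H replicate 1), TP53INP1 was lower (-0.93, lost with DESeq2 and without WT replicate 2 or P95H replicate 1), and MDM2, the ligase that degrades p53, did not pass (0.02).

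DNA replication genes changed little. Of mitotic genes 22.2% were higher and of histone genes 35% were lower, against 12.9% higher and 11.3% lower of all tested genes. Of 33 genes of DNA replication and the G1 to S transition, 3 were higher and 1, MCM6 (-0.29), was lower (median log2 change -0.05), and these calls were lost without WT replicate 1. Of 36 mitotic genes, 8 were higher and none lower (median 0.07; 0.15 in WT and 0.02 in P95H). The kinetochore protein CENPF was at 633 and 712 CPM in replicate 1 and 898 and 777 CPM in replicate 2 (log2 change 0.37 ± 0.09 SE, adjusted p = 0.00331), and WT replicate 1 was the lowest library. No mitotic gene was called without WT replicate 1, and CENPF lost its call without either WT library. MKI67 (0.18) and TOP2A (0.07), the common markers of cycling, did not pass. Replication-dependent histone genes, whose mRNAs lack poly(A) tails, had 14 of 40 lower and 1 higher (median -0.20), with DESeq2 calling 7 lower and 2 passing without WT replicate 1. HIST1H2BO was at 154 and 145 CPM in replicate 1 and 109.5 and 117 CPM in replicate 2 (log2 change -0.35 ± 0.08 SE, adjusted p = 0.00154).

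**Figure D5:**
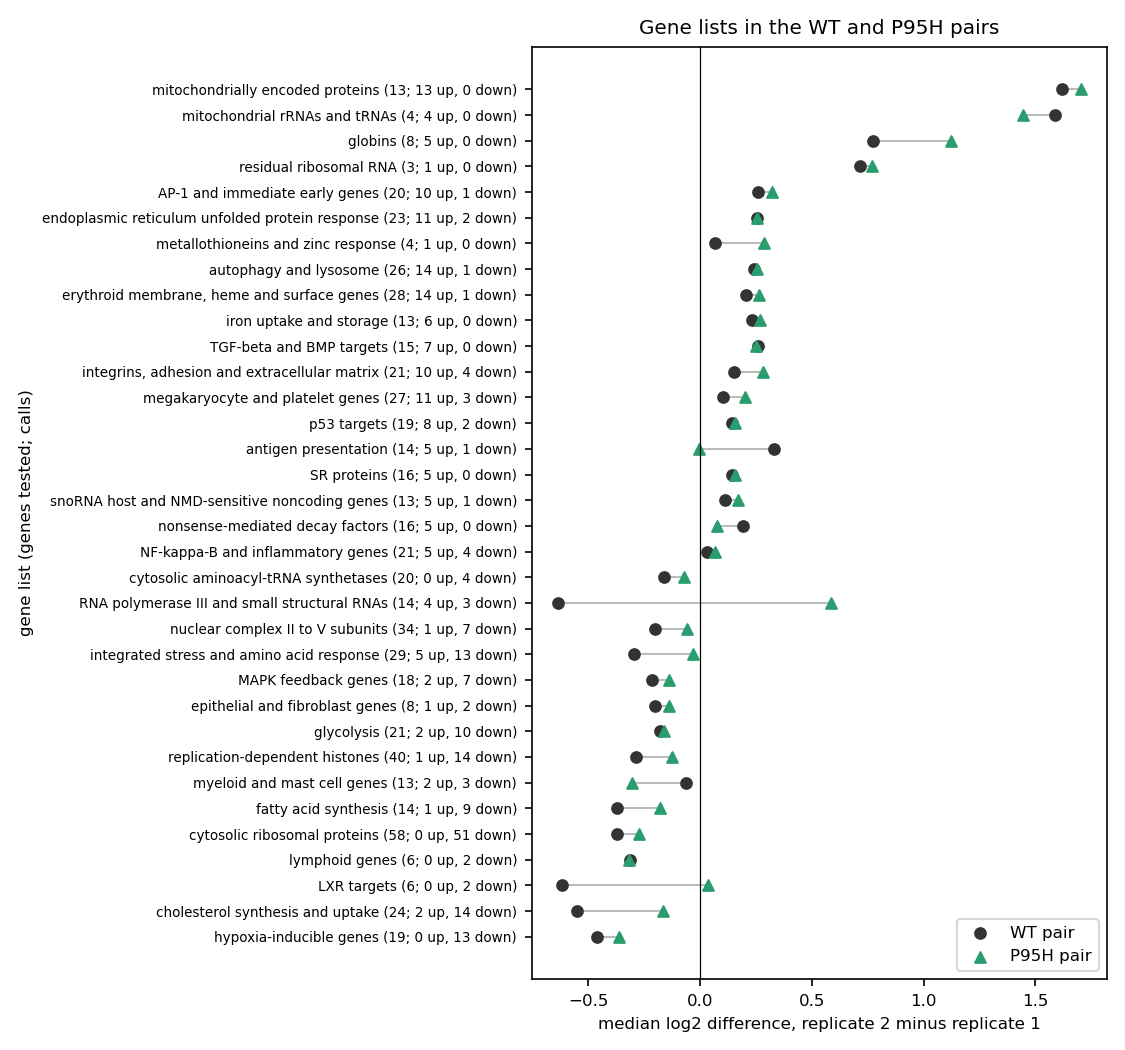
Median log2 difference between replicate 2 and replicate 1 in the WT pair (circles) and the P95H pair (triangles) for the 34 of 60 gene lists whose median in the fit over all 4 libraries was at least 0.1 in size; the labels give the genes tested and the calls. Pairs lie on the same side of 0 for most lists, and the small structural RNA list has its 2 symbols farthest apart, on opposite sides.

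Splicing genes bear on a study of SRSF2. Of 16 SR and related proteins, 5 were higher and none lower (median log2 change 0.15), 3 of them with DESeq2, and 1 was higher without WT replicate 1. SRSF6 was at 198 and 229 CPM in replicate 1 and 267 and 285 CPM in replicate 2 (log2 change 0.43 ± 0.07 SE, adjusted p = 0.000185), and SRSF2 itself changed by 0.13, which did not pass (adjusted p = 0.199). Of 9 CLK and SRPK kinases, which phosphorylate SR proteins, 2 were higher (CLK2 and SRPK3) and 2 lower (CLK1 and CLK4), each 22.2% of the list. The median was -0.03, and DESeq2 called CLK1 alone of them. CLK1 was at 62.7 and 66.2 CPM in replicate 1 and 43.1 and 46.1 CPM in replicate 2 (log2 change -0.48 ± 0.08 SE, adjusted p = 0.000115), and its difference was of similar size in either genotype (-0.48 in each). Core spliceosome genes had 3 of 32 higher and 4 lower, and hnRNPs, another family of splicing regulators, 1 of 26 higher and 3 lower, shares near or below the 12.9% and 11.3% of all tested genes. Factors of nonsense-mediated decay had 5 of 16 higher and none lower (median 0.13; 2 with DESeq2 and 2 without WT replicate 1), with SMG5 at 0.38 and NBAS at 0.33. Host genes of small nucleolar RNAs and other transcripts that this decay is known to degrade had 5 of 13 higher and 1 lower (3 higher without WT replicate 1): SNHG3 was at 259 and 243 CPM in replicate 1 and 383 and 387 CPM in replicate 2 (log2 change 0.67 ± 0.07 SE, adjusted p = 7.68e-07), and SNHG15 changed by 0.58. Of 10 abundant nuclear noncoding RNAs, 2 were higher and 1, OIP5-AS1, was lower (median -0.01). These shares of 20% and 10% compare with 12.9% and 11.3% of all tested genes. The largest rise of the list was in MALAT1, at 1199.6 and 1400.5 CPM in replicate 1 and 1813 and 2286 CPM in replicate 2 (log2 change 0.70 ± 0.08 SE, adjusted p = 9.06e-07).

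Short structural RNAs did not form a single group. RN7SL1, the RNA of the signal recognition particle (chromosome 14, 49586580 to 49586878), was at 138 and 60.9 CPM in replicate 1 and 20.9 and 34.4 CPM in replicate 2 (log2 change -1.72; DESeq2 adjusted p = 0.228), with WT replicate 1 the highest library. RN7SK, which holds back transcription elongation, was at 10986 and 9746 CPM in replicate 1 and 6649.5 and 7457 CPM in replicate 2 (log2 change -0.50). SNORD3A, the U3 RNA of ribosomal RNA processing, was at 2239 and 1204 CPM in replicate 1 and 1202 and 1639.9 CPM in replicate 2, a difference of -0.84 in WT and 0.49 in P95H that gave no call. Its WT replicate 1 library was the highest of the 4. RNU5A-1, a U5 RNA of the spliceosome, was higher (log2 change 1.46). The list of 14 had 4 higher and 3 lower (1 higher without WT replicate 1), and medians of -0.64 in the WT pair and 0.59 in the P95H pair. By annotated class, 25 small nuclear RNA genes had a median of 1.06 with 15 higher and 1 lower, 55 small nucleolar RNA genes a median of 0.26 with 18 higher and 2 lower, and 23 genes of the class that holds the RN7SL and Y RNA copies a median of -0.56 with 13 lower. Most are members of multicopy families counted at low levels, and how a library preparation keeps fragments of this length was not tested.

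Medians differed little between nuclear chromosomes, while the share of calls was less even. The share higher ran from 9.67% (chromosome 13) to 17.8% (chromosome 21). The share lower ran from 7.75% (chromosome 11) to 14.1% (chromosome 12), against 12.9% higher and 11.3% lower of all tested genes. The median log2 change of genes on a nuclear chromosome lay between -0.05 (chromosome 18) and 0.05 (chromosome 16), against 1.68 for the 17 tested genes of the mitochondrial genome. Coding genes of 5 to 20 kb had 17.8% of members higher and 8.54% lower, and those over 100 kb 11.03% and 11.85%. Genes annotated as lying within introns in the sense direction, which can collect reads of unspliced RNA, had 43 of 192 lower and 13 higher (median -0.20).

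The uninduced P95H library resembled replicate 2 of the same cells more than replicate 1. Across the tested genes its correlation was 0.995 to P95H replicate 2, 0.992 to WT replicate 2, and 0.989 and 0.988 to the replicate 1 libraries of WT and P95H. It was nearer in level to P95H replicate 2 than to P95H replicate 1 for 79.97% of the 1957 higher genes and 73.3% of the 1717 lower genes, against 66.8% of the genes with no call. All 13 mitochondrial protein genes were nearer to replicate 2, with a share of counts of 4.14%, as were 55 of 58 ribosomal protein genes, 17 of 19 hypoxia genes and 8 of 8 globin genes. Of the 60 lists, those with under 50% of members nearer to replicate 2 were cholesterol synthesis (9 of 24), fatty acid synthesis (4 of 14), the immediate early genes (5 of 20), the lymphoid genes (2 of 6) and the CLK and SRPK kinases (4 of 9). INSIG1 was at 236 CPM and SCD at 1198 CPM in the uninduced library, above their replicate 1 levels, and FOS was at 0.454 CPM, below every other library. This library differs from the P95H replicate libraries in doxycycline, and it has no replicate, so its place was not tested.

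Replicate number also bears on what can be said about the genotype. In the same fit, 51 genes differed between P95H and WT (0.336% of those tested), 25 higher and 26 lower. Of the 51, 38 were also among the replicate calls, which hold 24.2% of all tested genes. Both calls come from 1 fit with a shared estimate of spread for each gene, and its part in the overlap was not tested. CPT1A, THBS1 and CCNA1, all higher in replicate 2, were lower in P95H by log2 values of -0.77, -0.63 and -1.79, and CPA3, lower in replicate 2, was higher in P95H (0.97, adjusted p = 0.0235). With 4 libraries a genotype effect on these genes and a smaller replicate difference in P95H cells cannot be told apart. With no term for the replicate number, edgeR called 0 genes between the genotypes, with 110 at an unadjusted p under 0.05.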

How the data were processed

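RNA-seq libraries of HEL cells were compared by replicate number. The authors deposited raw counts per Ensembl gene. STAR 2.5.3a, TopHat2 2.0.14, edgeR and the build GRCh38.p3 are named without a role per the submitters' processing notes; the counting program, strand setting and annotation release were not given in the labels or notes used here. Genes with at least 1 CPM in 2 of the 4 libraries (15167) were scaled by TMM and tested with edgeR 4.0.16 in R 4.3.3 (quasi-likelihood F test, terms for genotype and replicate number, 1 residual and 22.1 prior degrees of freedom, Benjamini-Hochberg adjustment over all tested genes). Differences within a genotype are TMM-scaled log2 CPM with a prior count of 2; printed levels are plain CPM, and no level is compared between genes. Alternatives were DESeq2 1.42.0, limma-voom 3.58.1, other filters and scalings, no genotype block, and leaving out each library. The script was tested on simulated data.

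The members, the 60 gene lists and the rule for named genes were chosen with earlier results of these data known, so list counts and medians are descriptions without a test of the list. Named genes were the 12 largest rises and falls among called genes (mean log2 CPM of at least 1, same sign in both pairs, no overlap), up to 4 called genes per list, and all mitochondrial protein genes; other members are named with their values after these were seen. Of 1395 list entries, 1168 (1130 genes) were tested. RefSeq promoters, the first listed start of a gene, were matched by symbol for 9595 tested genes. The HITS-CLIP samples were not used here.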

Additional observations from a re-analysis of the deposited data

Results flagged for a closer look

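For a few results the values of the WT and the P95H pair had opposite signs, some with a P95H value near 0, and in each case the difference between the pairs was not tested, since there is 1 library for each genotype and number. For KIT, the stem cell factor receptor, the WT pair gave a log2 difference of 1.05 and the P95H pair -0.11, a gap of 1.16. The median of the small structural RNA list was -0.64 in WT and 0.59 in P95H, a gap of -1.22 on the log2 scale. The median of the LXR targets was -0.62 in WT and 0.04 in P95H (gap -0.65), and that of the antigen presentation genes 0.33 and -0.0027 (gap 0.33). WT replicate 1 held the highest level of SNORD3A, RN7SL1 and RNU4-1 among the 4 libraries.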

How the results depend on the processing

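The counts of calls changed with the setting. In every alternative, all genes called both there and in the main test kept their sign. The alternatives reuse the same libraries and only genes called in both were compared, so this agreement was nearly fixed in advance. Against 1957 higher and 1717 lower genes, requiring a mean of at least 5 CPM gave 1042 lower, DESeq2 gave 769 higher and 555 lower, and dropping the genotype block gave 1104 lower. With 1 library left out, the counts were 875 higher and 698 lower (without WT replicate 1), 886 and 580 (without WT replicate 2), 885 and 718 (without P95H replicate 1), and 1298 and 1162 (without P95H replicate 2); these fits have 3 libraries, and the lone library of a number is assumed to vary like the others. Other filters and scalings and limma-voom stayed within 1.5 times. The 237 genes of the naming rule kept their sign in every alternative, which is no separate evidence, since they were named because they were called. Of these, 159 stayed past the threshold in every alternative with the genotype block that gave them an adjusted p. Alternatives in which a gene was not tested or had no adjusted p were passed over in this count. DESeq2, taken alone, kept 155. DESeq2 did not call 78 of the 237 and gave no adjusted p for 4. Of 34 lists with a median of at least 0.1 in size, 1 changed sign: the small structural RNAs, at 0.41 without WT replicate 1 and 0.0038 without WT replicate 2.

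Libraries of the same number share only a number in the labels. The genotype comparison gave 0 calls with no replicate block, against 51 with it. With 2 pairs the fit cannot tell whether the numbers pair the cultures. At these depths 3 counts are 0.0667 to 0.0802 CPM, so lower levels rest on very few counts. Only genes with at least 1 CPM in 2 of the 4 libraries were tested, and differences of other genes were not examined. Passing that minimum does not mean that a difference could be detected.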
